A study of Mus musculus with 5 samples.

Results

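Dhx38 and Txnl4b are neighbouring mouse genes on chromosome 8 that are transcribed away from each other from a shared, divergent promoter. They were examined together as a locus because they had been chosen by a measured value, namely less RNA polymerase II (Pol II) over their promoter in Setd2-deficient regulatory T (Treg) cells than in control Treg cells. Every comparison of knockout with control at the locus is therefore a description, given without a p-value. Pol II was mapped by CUT&Tag, in which an antibody bound to chromatin guides a transposase, so that sequenced fragments accumulate where the protein sits. The locus took every peak whose midpoint lay in either gene or in the 3 kb upstream of it, which gave 8 of the 56615 peaks of the study and 2 of the 12927 genes that held a peak. All 8 peaks belonged to Dhx38, and the peak over the promoter was also the only one of Txnl4b.

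The nuclei came from splenic Treg cells of 8-week-old C57BL/6 mice, sorted as CD3+CD4+ cells positive for the YFP that the Foxp3-Cre allele carries. All mice had received IL-2c to expand their Treg cells, made of IL-2 (1 μg) bound to an anti-IL-2 antibody (5 μg), for 3 days, and cells were taken 48 h later. Control mice (Ctrl) were Foxp3CreSetd2flox/+, so that Cre, driven by Foxp3, and 1 floxed Setd2 allele were present in the controls too, and knockout mice (KO) were Foxp3CreSetd2flox/flox. There were 2 Ctrl and 2 KO libraries of 80000 nuclei each, with both sexes pooled and the cells of 2 mice combined. The methods of the study call each such library a biological replicate, but do not state whether the 2 libraries of a genotype came from different mice, and their spread may then leave out differences between animals. An IgG library is listed and was not analysed here, so no background inside the peaks was subtracted.

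As background, Pol II assembles at a promoter, collects close to the start site and is then released into the gene, where H3K36me3, the mark that Setd2 deposits, is laid down behind it. At a divergent promoter, polymerases leave in opposite directions from start sites that lie close together. Both genes at this locus are tied to pre-mRNA splicing: Dhx38, the mammalian Prp16, is a DEAH-box ATPase that remodels the spliceosome between the catalytic steps, and Txnl4b is a thioredoxin-like relative of Txnl4a, the Dim1 protein of the U5 small nuclear ribonucleoprotein (snRNP). CUT&Tag reads carry no strand, so reads of the shared peak cannot be credited to either gene. In nuclei measured in bulk, less Pol II on each copy of the locus and fewer nuclei with Pol II on the locus cannot be told apart.

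Total counts in peaks ranged from 4489646 in KO 2 to 13351007 in KO 1, with 11331274 in Ctrl 1 and 5624680 in Ctrl 2. Replicate 1 was thus the deeper library of each genotype. Counts are given below after division by the DESeq2 size factor of the library and are called normalized counts. Of the 7 Treg marker genes examined, all 7 had a peak, and their summed normalized counts were 26570 to 32234 in Ctrl and 28018 to 32607 in KO. Most of each sum came from Ikzf2 with its 60 peaks, so the sums say little about the other markers. Foxp3 had 1931 and 1634 normalized counts in Ctrl and 1873 and 1620 in KO. Among 10 markers of other spleen cells only the B cell gene Cd79a had a peak, at 81.3 to 88.4 normalized counts in Ctrl and 67.7 to 121 in KO. Setd2 itself had 525 and 513 normalized counts in Ctrl and 458 and 560 in KO over 9 peaks, which include parts of the gene outside the floxed exons and so give no check of the deletion. In the DESeq2 test, 0 of 56615 peaks had an adjusted p below 0.05 (0%), 864 had an unadjusted p below it, and edgeR called 27. On counts summed per gene, DESeq2 called 13 of 12927 genes (0.101%), 11 of them lower in KO, whereas edgeR called 0 with 585 unadjusted.

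Dhx38 lies on the minus strand at chr8:109548011-109565861 (GRCm38, which is mm10; GENCODE vM21), spans 17.9 kb and has 27 exons. Txnl4b lies on the plus strand at chr8:109565892-109574051, spans 8.16 kb and has 4 exons. The start sites were separated by 30 bases. The sequence of this gap is shown, with the first 30 bases of Dhx38 exon 1 beside it, because the annotated start sites of both genes lie at its edges. It is chr8:109565832-109565891, read from the GRCm38 genome on the plus strand, so that Dhx38 is read from it to the left and Txnl4b to the right.

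Dhx38/Txnl4b shared promoter: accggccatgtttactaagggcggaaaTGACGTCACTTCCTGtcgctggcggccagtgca

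The 15 capitals mark a pair of motifs that overlap by 1 base: the cAMP response element TGACGTCA at chr8:109565859-109565866 and, on the minus strand, the ETS motif CAGGAAGT at chr8:109565866-109565873. They run across the Dhx38 start site into the gap between the genes. The motifs were chosen after the sequence had been seen. Searched on both strands in the 32851 RefSeq promoters of 300 bases, TGACGTCA was present in 1.79% and CAGGAAGT in 3.33%. The promoter of Txnl4b in that table, from 250 bases before the start to 50 after it, also held 1 GC box GGGCGG, found in 35.7% of promoters, and 1 CCAAT box, found in 37.4%. It held no TATAAA, which was present in 13.6%. Such matches describe the letters and do not show that a factor binds there.

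The shared promoter peak ran from chr8:109565189-109566561, covered 1373 bp and took in exon 1 of both genes. Ctrl 1 had 324 normalized counts over it and Ctrl 2 had 314, whereas KO 1 had 132 and KO 2 had 152. The KO libraries lay close to each other and far below both Ctrl libraries. The group means were 319 ± 7.10 in Ctrl and 142 ± 13.5 in KO (SD, n = 2), so that KO stood at 44.5% of Ctrl, a log2 fold change of -1.18 ± 0.26 (SE). Set against each other singly, the KO libraries held between 40.9% and 48.3% of a Ctrl library. The raw counts behind these values were 451, 228, 223 and 89 in the same order. Since the locus was selected on this difference, its size is part of the selection and is no test of it.

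Per length, the shared peak held 232 normalized counts per kb in Ctrl, which placed it at the 82.1 percentile of 17068 promoter peaks, whose median was 139. A promoter peak was one with its midpoint within 3 kb, on either side, of the start of a coding or non-coding gene. Such peaks need not cover a start, so these percentiles do not compare the shared peak with start sites alone. In KO the shared peak held 103 per kb. Its sequence was 51.8% GC, below the median of promoter peaks (32.5 percentile, median 55.0%), and it held 73 CpG sites. The observed over expected CpG ratio was 0.793, at the 85.2 percentile of promoter peaks (median 0.467). The body peaks of Dhx38 had ratios between 0.145 and 0.501, all below that of the promoter.

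Inside Dhx38 there were 7 further peaks, which together with the promoter peak covered 46.5% of the gene and touched 21 of its 27 exons. Exons made up 25.0% of Dhx38 and 35.8% of the bases in its 7 body peaks. No peak lay in the 2.95 kb between the promoter peak and the next one, a stretch that holds most of the first intron of 2.71 kb. The peaks are described below in the direction in which Pol II travels through Dhx38. In Ctrl they held 108 to 150 normalized counts per kb, and none of the 7 was as dense as the promoter. By the KO means, the fifth peak was denser than the promoter, at 116 against 103 per kb. The other body peaks held 36.3 to 77.1 per kb in KO.

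**Figure D1:**
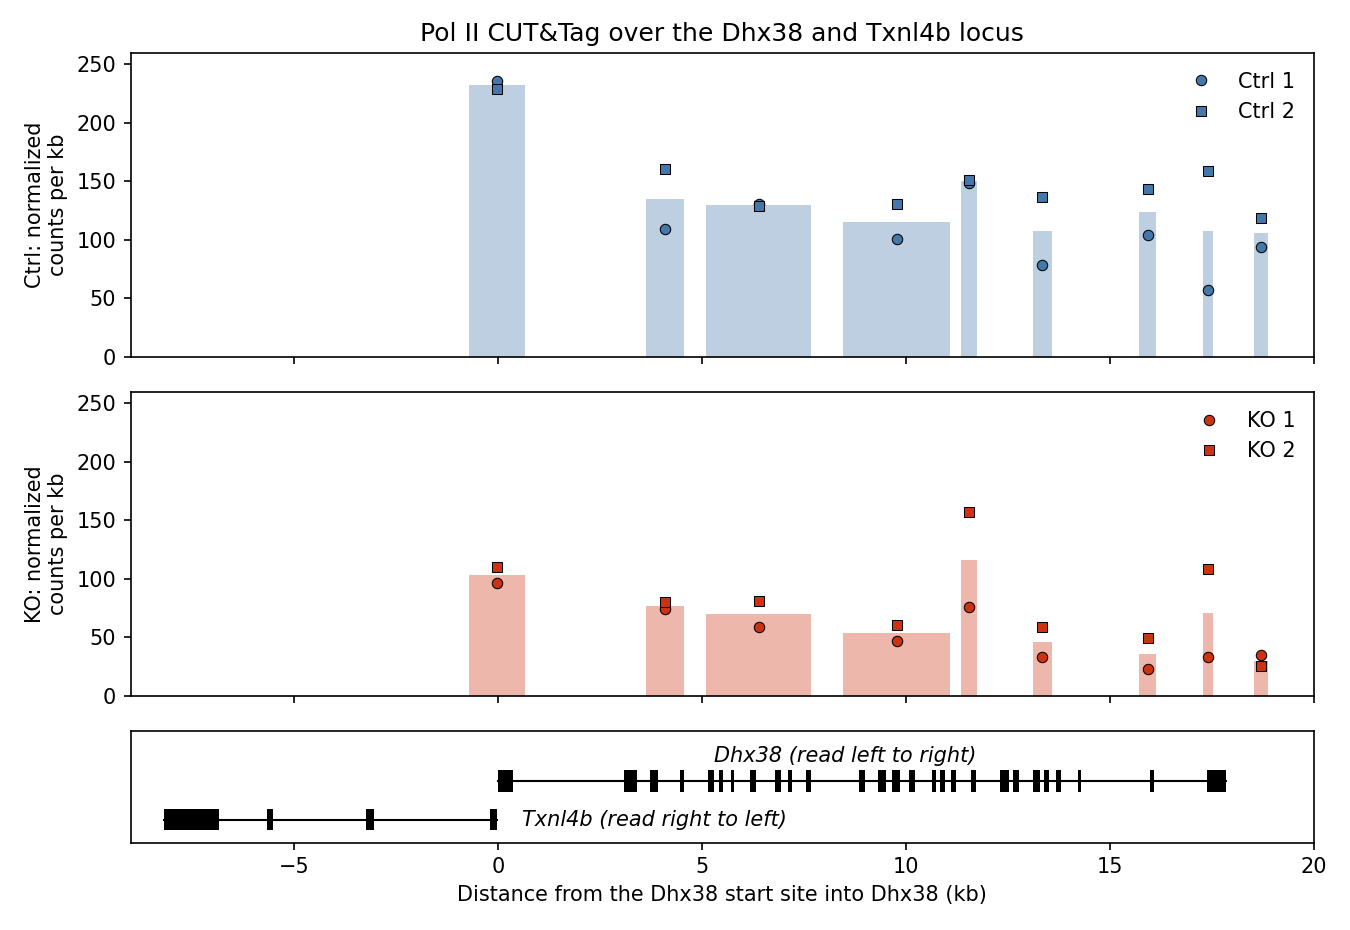
Normalized Pol II counts per kb (vertical axes) against the distance from the Dhx38 start site into Dhx38 in kb (horizontal axis), for Ctrl (upper panel) and KO (middle panel), with the exons of both genes below. Bars give the mean of the 2 libraries and the width of each peak, and points give single libraries. The promoter peak at 0 kb is the highest in Ctrl, no peak lies in Txnl4b beyond the promoter, and the last bar on the right is the peak that lies past the end of Dhx38.

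The second peak, over exons 3 to 4 (chr8:109561305-109562241, 937 bp), had 103 and 150 normalized counts in Ctrl against 69.5 and 74.9 in KO (log2 fold change -0.80 ± 0.36). Here the Ctrl libraries differed more from each other than the KO libraries did, and the groups did not overlap. The third peak covered exons 5 to 11 (chr8:109558183-109560755, 2573 bp), with 336 and 332 normalized counts in Ctrl and 152 and 208 in KO. Its log2 fold change was -0.91 ± 0.26. The fourth covered exons 12 to 17 (chr8:109554796-109557395, 2600 bp), with 261 and 339 normalized counts in Ctrl, 123 and 157 in KO, and a log2 fold change of -1.11 ± 0.28. These were the widest peaks of the locus, and in each of them both KO libraries lay clearly under both Ctrl libraries.

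Further into the gene the peaks were narrow and their counts low. The fifth peak, in exon 19 and the introns beside it (chr8:109554128-109554518, 391 bp), had 58.2 and 59.2 normalized counts in Ctrl, 29.7 in KO 1 and 61.3 in KO 2. KO 2 was thus above both Ctrl libraries, and the log2 fold change of -0.42 ± 0.49 was smaller than its error. It was the only peak of the 8 where KO 2 was not below Ctrl 2. The sixth peak, over exons 22 to 23 (chr8:109552288-109552752, 465 bp), had 36.7 and 63.4 normalized counts in Ctrl and 15.4 and 27.2 in KO, with a log2 fold change of -1.27 ± 0.58.

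The seventh peak, at exon 26 (chr8:109549737-109550149, 413 bp), showed the largest difference of the locus, with 43.1 and 59.2 normalized counts in Ctrl against 9.51 and 20.4 in KO. Its log2 fold change of -1.87 ± 0.61 came with the second largest error of the 8 peaks. The eighth peak, in the last exon (chr8:109548331-109548582, 252 bp), had 14.4 and 40.0 normalized counts in Ctrl and 8.32 and 27.2 in KO, so that the groups overlapped and the log2 fold change was -0.67 ± 0.78. The raw count of a locus peak in a library ranged from 12 to 467, and the low end of that range belongs to these last peaks.

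Across the locus, the KO values were all lower than the Ctrl values at 6 of the 8 peaks, and the groups overlapped at 2. Among all peaks the same order was seen at 16.1%, and since the locus was chosen on this contrast nothing is read from the higher share here. The mean was lower in KO at all 8 peaks. By library number, KO 1 was below Ctrl 1 at 8 peaks and KO 2 below Ctrl 2 at 7. The labels share only numbers, so these libraries are not known to be matched pairs. The log2 fold changes ran from -1.87 to -0.42 with a median of -1.01, and the median of the 7 peaks that only Dhx38 has was -0.91. A trend from the start to the end of Dhx38 was not tested, and none is read here, since the errors of the last peaks are large.

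**Figure D2:**
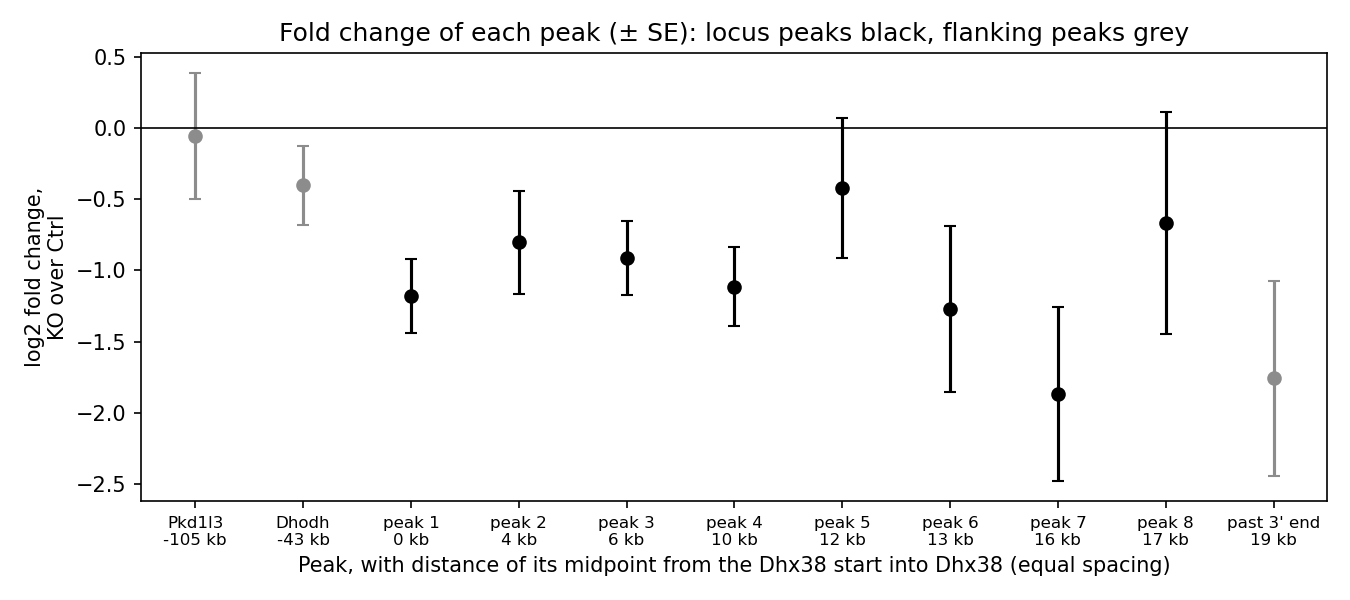
log2 fold change of KO over Ctrl for each peak (vertical axis, points with SE bars from the DESeq2 fit of all peaks), in order along the chromosome from Pkd1l3 to the end of Dhx38 at equal spacing (horizontal axis, with the distance from the Dhx38 start in kb). The 8 locus peaks in black lie between -1.87 and -0.42, and the 3 flanking peaks are grey.

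Summed over its 8 peaks, Dhx38 had 1176 and 1357 normalized counts in Ctrl against 540 and 727 in KO. The means were 1267 ± 128 and 634 ± 132 (SD, n = 2), so KO held 50.03% of Ctrl, a log2 fold change of -1.01 ± 0.18. KO 1 was the lower KO library and Ctrl 1 the lower Ctrl library, and the groups stayed apart. Without the shared promoter peak, Dhx38 alone held 852 and 1043 normalized counts in Ctrl against 408 and 576 in KO, so that KO stood at 51.9% (log2 fold change -0.96 ± 0.20). The lower Pol II level of KO was therefore present over the body of Dhx38 as well as over its start. Txnl4b rests on the shared peak alone, with a log2 fold change of -1.18 ± 0.24 in the gene fit. In 18.9% of all genes the KO values were likewise all lower than the Ctrl values.

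The division of the locus counts among its peaks was compared between libraries. The promoter peak held 27.6% of the locus counts in Ctrl 1 (95% Wilson interval 25.5 to 29.8), 23.1% in Ctrl 2 (20.6 to 25.9), 24.5% in KO 1 (21.8 to 27.4) and 20.8% in KO 2 (17.3 to 24.9). Within each genotype the library numbered 1 had the higher promoter share, and the groups overlapped. The broad peaks over exons 5 to 11 and 12 to 17 together held 50.7% and 49.4% in Ctrl and 50.9% and 50.1% in KO. The other 5 peaks held 21.7% and 27.4% in Ctrl and 24.5% and 29.0% in KO. These intervals cover counting error only and leave out variation between libraries.

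On the other side of the promoter, Txnl4b continued for 7.49 kb beyond the edge of the shared peak, and no merged peak was found over its other 3 exons. Its Pol II level within the gene is not known from this table, which holds counts in peaks only. Among 595 divergent pairs of protein-coding genes with starts at most 1 kb apart under 1 peak, a gene with no peak of its own was found in 24.5%. The 30 bases between the Dhx38 and Txnl4b starts compared with a median gap of 118 bases, and 9.08% of pairs had a gap no wider. The promoter was of middling density among these pairs in Ctrl, at the 51.3 percentile of counts per kb (median 230). Its log2 fold change was the third lowest among them, a rank that is part of the selection and is no test of it. The lowest was -1.27, the median -0.07, and the KO values were all lower in 24.0% of the pairs.

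The genes within 100 kb were examined to see how far the lower Pol II level reached. Of 5 such genes, Hp, which encodes the haemoglobin-binding plasma protein haptoglobin and ends 1.08 kb past Txnl4b, and Pmfbp1, 5.37 kb past the end of Dhx38, had no peak. Dhodh, the dihydroorotate dehydrogenase of pyrimidine synthesis, lies 17.3 kb past Txnl4b and had 1 peak, at its promoter, with 235 and 227 normalized counts in Ctrl and 152 and 203 in KO. The groups did not overlap, but the log2 fold change of -0.41 ± 0.26 did not pass the test (DESeq2 adjusted p = 1.00). Pkd1l3, a polycystin-like membrane protein gene, had 56.1 and 53.7 normalized counts in Ctrl and 48.7 and 57.9 in KO, with a log2 fold change of -0.06 ± 0.44. Its 1 peak (chr8:109670554-109671371) was not at a promoter and lay 105 kb from the Dhx38 start. The peak reached into the 3' end of Ist1, so its reads cannot be credited to Pkd1l3 alone. Ist1, an ESCRT-III-associated protein gene with 7 peaks, had 594 and 634 in Ctrl against 591 and 538 in KO (log2 fold change -0.11 ± 0.18). Its groups did not overlap either, though KO 1 was barely below Ctrl 1. The KO values were all lower in 18.9% of all genes. Only the 3' end of Ist1 lies within 100 kb, 97.3 kb past Txnl4b. All 7 of its peaks lie farther away than 100 kb, so they do not show the Pol II level inside that distance.

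By adjusted or unadjusted p below 0.05, 0 of the 3 flanking genes with a peak were called by DESeq2, and edgeR also called 0 by either. Over all genes, 0.101% passed the adjusted DESeq2 test, and an unadjusted p below 0.05 was found in 2.61% (DESeq2) and 4.53% (edgeR). With shares this low, 0 calls among 3 genes says nothing about the flanks. The median log2 fold change of the 3 flanking genes was -0.11 beside -0.02 over all genes. The errors are wide enough that a change of the size of the Dhodh estimate could be missed. A further peak with no gene, at chr8:109546994-109547330, lay 681 bp past the 3' end of Dhx38, just outside the limits used for the locus. It had 31.6 and 40.0 normalized counts in Ctrl and 11.9 and 8.52 in KO. Both KO libraries were lower, and the log2 fold change of -1.76 ± 0.68 was of the size seen at the seventh peak (DESeq2 unadjusted p = 0.0103, adjusted p = 1.00). The raw counts behind it were low, at 44 and 29 in Ctrl and 20 and 5 in KO.

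**Figure D3:**
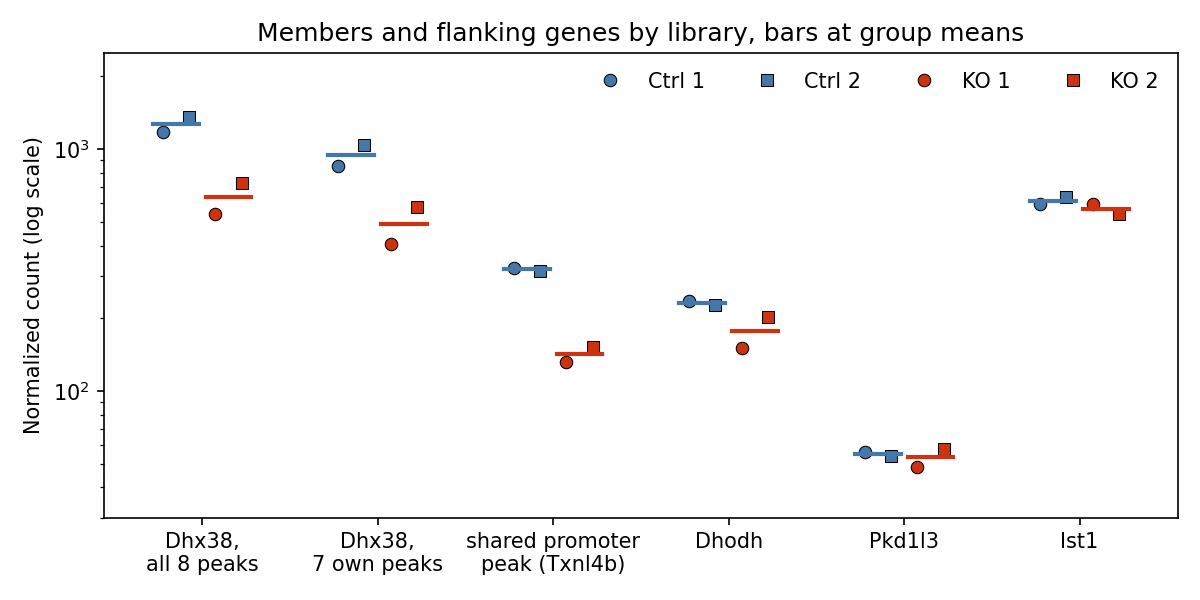
Normalized counts by library (vertical axis, log scale) for Dhx38 over all 8 peaks, Dhx38 over its 7 own peaks, the shared promoter peak that is also Txnl4b, and the flanking genes Dhodh, Pkd1l3 and Ist1 (horizontal axis). Points are single libraries and horizontal bars are means of 2 libraries. The KO points of Dhx38 and of the shared peak lie well under the Ctrl points. Those of Dhodh and Ist1 also lie under the Ctrl points, but nearer to them, and those of Pkd1l3 lie on either side.

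To place the pair among genes of related function, 60 genes were listed: splicing helicases, U5 and tri-snRNP proteins, factors of the catalytic steps, and the thioredoxin family. All 60 had a peak. Apart from Dhx38 and Txnl4b, 0 of 58 passed the DESeq2 test over all genes (0.101% of all genes did), 2 had an unadjusted p below 0.05 (2.61% of all genes did), and edgeR called 0 with 5 unadjusted (4.53% of all genes). Of the 58, 26 had a log2 fold change below 0, and the median was 0.01 beside -0.02 over all genes. The KO values were all below the Ctrl values in 9 of them, beside 18.9% of all genes, and all above in 9, beside 15.2% of all genes. The 58 values ran from -0.39 to 0.32, so that none came near the values of Dhx38 and Txnl4b. Since that pair was chosen for lower Pol II in KO, its distance from the list follows from the selection.

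The closest relatives of the pair had log2 fold changes between -0.14 and 0.20. Txnl4a had 1831 and 1706 normalized counts in Ctrl against 1583 and 1749 in KO (log2 fold change -0.09 ± 0.14). Dhx8, the Prp22 helicase that releases the spliced mRNA, had 410 and 544 in Ctrl against 481 and 615 in KO (0.20 ± 0.21). Dhx15, the Prp43 helicase of spliceosome disassembly, stood at -0.14 ± 0.20. Dhx16, the Prp2 helicase that acts before the first catalytic step, stood at 0.00 ± 0.21. In all 4 genes the libraries of the groups overlapped.

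Among the 15 splicing helicases the median log2 fold change was 0.00. With Dhx38 set aside, and next to Dhx8 and Dhx15, the outer values with at least 50 normalized counts were 0.22 ± 0.20 in Ddx46, the Prp5 helicase of early spliceosome assembly, and -0.21 ± 0.17 in Ddx42. The 17 U5 and tri-snRNP genes had a median of 0.06. Prpf8, the scaffold at the catalytic centre, had 897 and 1029 normalized counts in Ctrl and 1128 and 1277 in KO (0.32 ± 0.16, unadjusted p = 0.0463, adjusted p = 1.00). Sart1, a tri-snRNP protein, had 1693 and 1699 in Ctrl and 1990 and 2201 in KO (0.30 ± 0.14, unadjusted p = 0.0306, adjusted p = 1.00). In this fit, which has no replicate block, neither passed the adjusted test, although the KO libraries were above both Ctrl libraries in each. At the other end stood the U5 GTPase Eftud2 at -0.37 ± 0.23 and the cyclophilin Ppih at -0.30 ± 0.35.

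The 21 genes of the catalytic steps had a median of -0.01, with Ppil1 at 0.31 ± 0.17 and Prpf18 at 0.19 ± 0.19 at the upper end, and Xab2 at -0.30 ± 0.21 and Fam50a at -0.29 ± 0.23 at the lower end. In the thioredoxin family of 10 genes the median was -0.02. Txndc9 and Txndc12 were highest at 0.12 ± 0.19 and 0.12 ± 0.19, and besides Txnl4b the lowest were Txndc17 at -0.39 ± 0.25 and Txnl1 at -0.34 ± 0.21. These genes were not called, and each lay well above Txnl4b, which was chosen for its low value.

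**Figure D4:**
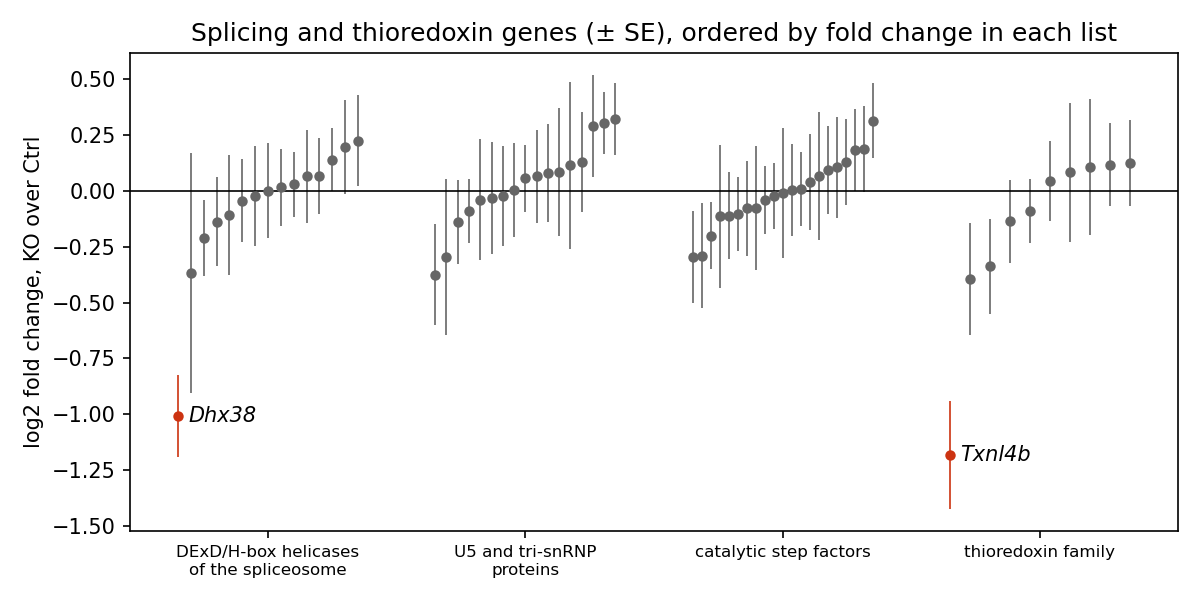
log2 fold change of KO over Ctrl (vertical axis, SE bars) for the genes of 4 lists (horizontal axis), ordered by value within each list. Dhx38 at -1.01 and Txnl4b at -1.18, in red, were chosen for lower Pol II over their promoter in KO. They lie below all other genes, which range from -0.39 to 0.32. Txnl4a, Ddx23 and Snrnp200 appear in 2 lists.

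Genes elsewhere with the most similar pattern over the 4 libraries were found by the distance between log2 normalized counts, each centred on its own mean, among 10422 genes with at least 100 normalized counts. The distance between Dhx38 and Txnl4b, which share a peak, was 0.290. Nearest to Dhx38 were Fpgt, a gene of fucose salvage, and Lrriq3, which share 1 peak on chromosome 3 (distance 0.245). That peak had 151 and 145 normalized counts in Ctrl and 69.5 and 95.4 in KO. A430005L14Rik on chromosome 4 (0.312) and the zinc finger gene Zfp788 on chromosome 7 (0.318) were also among the 5 nearest.

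Nearest to Txnl4b were Chpf, the chondroitin polymerizing factor, and Tmem198, which share their peaks on chromosome 1 (distance 0.222) and had 484 and 379 normalized counts in Ctrl and 184 and 203 in KO. A430005L14Rik (0.248), the glycerolipid synthesis gene Gpat4 on chromosome 8 (0.329) and Fpgt (0.363) came next. In each of these genes the KO libraries lay below both Ctrl libraries, which follows from the pattern that was matched. The likeness rests on 4 libraries that all genes share, and it is given as a description.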

How the data were processed

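Pol II CUT&Tag was analysed in 2 Ctrl and 2 KO libraries. The authors mapped paired-end reads to mm10 with Bowtie2, kept unique non-duplicate reads, called peaks with MACS2 against IgG, merged them with bedtools, and deposited raw read counts per merged peak; tool versions are not given in the sources used here. Merged peaks called on the same libraries differ in length, and counts outside peaks are not in the table. Peaks were assigned by midpoint to protein-coding genes of GENCODE vM21 (body or 3 kb upstream), otherwise to non-coding genes. The Wald test of DESeq2 1.42.0 in R 4.3.3 set KO against Ctrl over all peaks and, on summed counts, over all genes, with size factors from the peak table (1.39, 0.726, 1.68 and 0.587), two-sided, with p-values adjusted by Benjamini-Hochberg at 0.05. Scripts were tested on simulated data. The locus, the gene lists and the motifs were chosen with earlier results of these data known. Named were all locus peaks, all flanking genes, the extremes of each list with a mean of at least 50, the relatives Txnl4a, Dhx8, Dhx15 and Dhx16, and the 5 nearest genes by Euclidean distance on log2(normalized count + 0.5), of which 1 is not reported here. Alternatives were edgeR 4.0.16, total-count scaling, a minimum mean count of 10, any-overlap assignment, a replicate block and leaving out each library.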

Additional observations from a re-analysis of the deposited data

How the results depend on the processing

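The lower Pol II level at the locus kept its direction under every alternative run, at -1.23 to -0.80 for Dhx38, -1.21 to -0.72 for its 7 own peaks, and -1.27 to -1.07 for the shared promoter peak and for Txnl4b on the log2 scale. The last 2 moved beyond the replicate spread only without KO 1, to -1.07 each. Leaving out 1 library could not have turned the direction. The highest KO value was 61.8% of the lowest Ctrl value for Dhx38, 67.6% for its own peaks and 48.3% for the shared peak. The locus had also been chosen on this contrast, so the kept direction is no test of the difference. The counts of calls did not hold. For peaks, 0 calls became 27 with edgeR, and 0 to 5 when 1 library was left out (5 without Ctrl 2, 3 without KO 2). For genes, 13 calls became 0 with edgeR and 0 to 3 when 1 library was left out (0 without Ctrl 1 or KO 1, 3 without Ctrl 2 or KO 2), and a genotype left with a lone library was assumed to vary like the other. The replicate block gave 25 peaks and 123 genes. The labels share only numbers, the 2 numbered pairs gave a correlation of deviations of 0.234, and with the block DESeq2 gave no adjusted p for 41710 peaks and 79.5% of genes. Of the 3 flanking genes with a peak 0 were called under the alternatives that gave them an adjusted p, which the block did not, and their medians were -0.19 to -0.08 without 1 library. Among the 58 splicing and thioredoxin genes other than Dhx38 and Txnl4b, the 0 calls became 1 with the block, Sart1 (log2 fold change 0.30 ± 0.096, DESeq2 adjusted p = 0.0413), where 42 of the 58 had no adjusted p, and stayed at 0 under the other alternatives. Their median was 0.0072, 0.037 with total-count scaling, and -0.010 to 0.022 without 1 library (-0.0029 without Ctrl 2, -0.010 without KO 1, -0.0053 without KO 2). The cause of these changes was not tested. With raw counts from 12 to 467 in a locus peak, the narrow peaks at the end of Dhx38 carry the largest counting error.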
